A study of Mus musculus with 7 samples.

Results

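The MHC class II presentation genes were examined in the control arm of a single-cell study of mouse mammary tumors. The set holds 8 genes, H2-Aa, H2-Ab1, H2-Eb1, Cd74, H2-DMa, H2-DMb1, H2-Oa and Ciita, chosen by name, among 33710 genes listed in the count matrices. The tumors came from 7 control MMTV-PyMT; HK2 f/f mice on a C57BL/6 background, labelled wild type, 1 library per mouse, named replicates 1, 2, 3, 4, 5, 7 and 8. In these mice the MMTV promoter drives the polyoma middle T oncogene in mammary epithelium, both HK2 alleles are floxed in all 7 mice and no Cre driver is carried, and the labels place sampling 3 months after a tumor could be felt. As the study describes it, tamoxifen was injected into control and HK2-deleted mice alike once a tumor was palpable. Tumors with HK2 deletion were not analysed here. Drop-seq was used, in which a droplet barcode marks each cell and a random tag, the unique molecular identifier (UMI), marks each captured mRNA.

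Class II molecules display peptides from engulfed proteins to CD4 T cells. The alpha and beta chains (H2-Aa with H2-Ab1, and H2-Eb1) assemble around the invariant chain Cd74, which fills the groove and carries the complex to endosomes. There H2-DM (H2-DMa and H2-DMb1) exchanges the last piece of Cd74 for peptide, and H2-O, of which H2-Oa is a chain, holds H2-DM back. Ciita is the master coactivator of these genes. Dendritic cells, macrophages and B cells use the pathway constitutively, and interferon gamma can switch it on in epithelium. C57BL/6 mice make no E alpha chain, so their E beta chain lacks its partner.

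Ciita acts through short promoter sequences read by RFX (the X box) and NF-Y (the Y box, which holds the reverse of a CCAAT box). Promoters of 300 bases, from 250 before to 50 after the transcript start, were available from RefSeq (GRCm38.p6) for 5 of the 8 genes. They are shown for 4 genes in which a Y box core, TGATTGG, followed the letters GNAAC of an X box. Capitals mark those letters, each sequence runs 5′ to 3′ on the gene's own strand, and the order is X box first.

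H2-Aa (chr17:34287774-34288073, minus strand): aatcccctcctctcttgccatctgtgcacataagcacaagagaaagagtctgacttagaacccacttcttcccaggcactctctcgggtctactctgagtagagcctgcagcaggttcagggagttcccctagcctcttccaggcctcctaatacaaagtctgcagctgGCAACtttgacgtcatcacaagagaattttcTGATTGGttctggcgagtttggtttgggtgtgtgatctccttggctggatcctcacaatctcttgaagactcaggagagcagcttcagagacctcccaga
H2-Eb1 (chr17:34305617-34305916, plus strand): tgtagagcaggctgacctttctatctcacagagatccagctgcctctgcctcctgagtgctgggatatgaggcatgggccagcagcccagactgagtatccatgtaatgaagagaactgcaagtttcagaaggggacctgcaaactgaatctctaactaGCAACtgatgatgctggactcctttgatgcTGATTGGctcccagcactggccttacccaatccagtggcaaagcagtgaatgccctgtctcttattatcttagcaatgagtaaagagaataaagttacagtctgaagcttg
H2-DMb1 (chr17:34152941-34153240, plus strand): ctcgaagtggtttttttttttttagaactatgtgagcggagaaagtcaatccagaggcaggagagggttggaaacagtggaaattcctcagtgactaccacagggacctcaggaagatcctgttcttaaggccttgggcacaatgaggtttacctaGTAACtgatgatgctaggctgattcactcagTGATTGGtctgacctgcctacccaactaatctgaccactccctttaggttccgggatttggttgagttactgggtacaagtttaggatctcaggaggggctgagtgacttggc
H2-Oa (chr17:34092129-34092428, plus strand): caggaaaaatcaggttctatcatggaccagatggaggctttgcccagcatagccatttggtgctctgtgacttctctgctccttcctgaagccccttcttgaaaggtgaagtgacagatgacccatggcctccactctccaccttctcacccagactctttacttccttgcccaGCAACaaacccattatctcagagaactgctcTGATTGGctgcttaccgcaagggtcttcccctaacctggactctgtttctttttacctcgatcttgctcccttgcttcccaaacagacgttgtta

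The distance from the first X letter to the first Y letter was 31 bases in H2-Aa, H2-DMb1 and H2-Oa and 30 bases in H2-Eb1. The Y box began 50, 61, 63 and 45 bases before the start in H2-Aa, H2-Eb1, H2-DMb1 and H2-Oa. TGATTGG on either strand stood in 2538 of 32544 promoters (7.80%), and with GNAAC 20 to 40 bases before it in 187 (0.575%). Neither promoter listed for H2-DMa (chr17:34122582-34122881 and chr17:34125268-34125567) held TGATTGG. Both lie inside the annotated gene, and other starts of H2-DMa were not examined. The letters were chosen after these promoters had been read, and a match describes sequence only. H2-Ab1, Cd74 and Ciita had no entry. In GENCODE vM21 on GRCm38, H2-Ab1 (chr17:34257689-34269419, plus strand), H2-Aa (chr17:34282744-34287823, minus strand), H2-Eb1 (chr17:34305867-34316674), H2-DMa (chr17:34119541-34139101), H2-DMb1 (chr17:34153072-34160230) and H2-Oa (chr17:34092340-34095234) lie together in the class II region of chromosome 17, while Cd74 is on chromosome 18 and Ciita on chromosome 16.

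Cells were sorted into 8 classes by clustering without the class II genes and naming clusters from marker lists. Of 15047 cells with 200 to 6000 genes, 5176 were tumor epithelium (25275 ± 7903 CPM Csn3, SD over 7 mice, with PyMT transcripts), 1698 hormone-sensing luminal epithelium (1013 ± 470 CPM Cited1), 1858 C1q macrophages, 740 other myeloid cells (a monocyte-like cluster led by Retnla, Alox5ap and Napsa, with dendritic markers second), 467 B cells, 2211 T/NK cells, 1031 fibroblasts and 143 endothelial cells. Another 1723 cells, in an unnamed, an erythroid-like and a myoepithelial-like cluster, were in no class. No cluster was named dendritic. UMIs were summed per mouse and class, for sums of at least 10 cells. Levels are given as CPM, a gene's UMIs per 1000000 UMIs of the sum. B cells reached 10 cells in 4 mice and endothelial cells in 3. Cells held a median of 527 to 694 UMIs per library, and 5 of 15042 distinct cell barcodes occurred in 2 or more libraries. The 21950 barcodes under 200 genes served as a reference for free RNA. They can also hold small cells, above all in replicate 4, where they had a median of 197 UMIs against 58 to 108 in the other libraries. Replicate 4 stood apart in several class II levels below, and it held 1009 of the 1698 hormone-sensing cells.

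The 3 classical chains and the invariant chain averaged 4687 to 18869 CPM in C1q macrophages, other myeloid cells and B cells, and 37.7 to 501 CPM in every other class. H2-Ab1, the A beta chain, ran from 7205 to 17631 CPM in C1q macrophages over the 7 mice, with a median of 12287. In other myeloid cells it ran from 7849 to 16943 CPM (median 10451). In B cells it was 4722, 7549, 7306 and 6271 CPM in replicates 1, 2, 4 and 5. The macrophage and other myeloid ranges overlapped, and the B cells lay below the macrophages of the same mouse in replicates 1, 4 and 5 but not 2.

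H2-Aa, its A alpha partner, averaged 10823 ± 2844 CPM (SD, n = 7) in C1q macrophages, 9190 ± 2761 (n = 7) in other myeloid cells and 7097 ± 1259 (n = 4) in B cells. H2-Eb1, the E beta chain, averaged 9806 ± 2131, 7836 ± 2200 and 4687 ± 1077 CPM in the same order. Cd74 averaged 18869 ± 6361, 12894 ± 5416 and 14938 ± 7973 CPM. Macrophages and other myeloid cells overlapped in all 4 genes.

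Together the 8 genes gave 119550 UMIs in cells. C1q macrophages, 12.3% of the cells, held 67.3% of those UMIs, other myeloid cells 20.3% and B cells 7.003%. Tumor cells were 34.4% of the cells and held 1.69% of the UMIs. By mouse the macrophage share ran from 31.5 to 83.7%, the share of B cells from 0 to 50.8% and that of tumor cells from 0.464 to 5.31%.

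**Figure D1:**
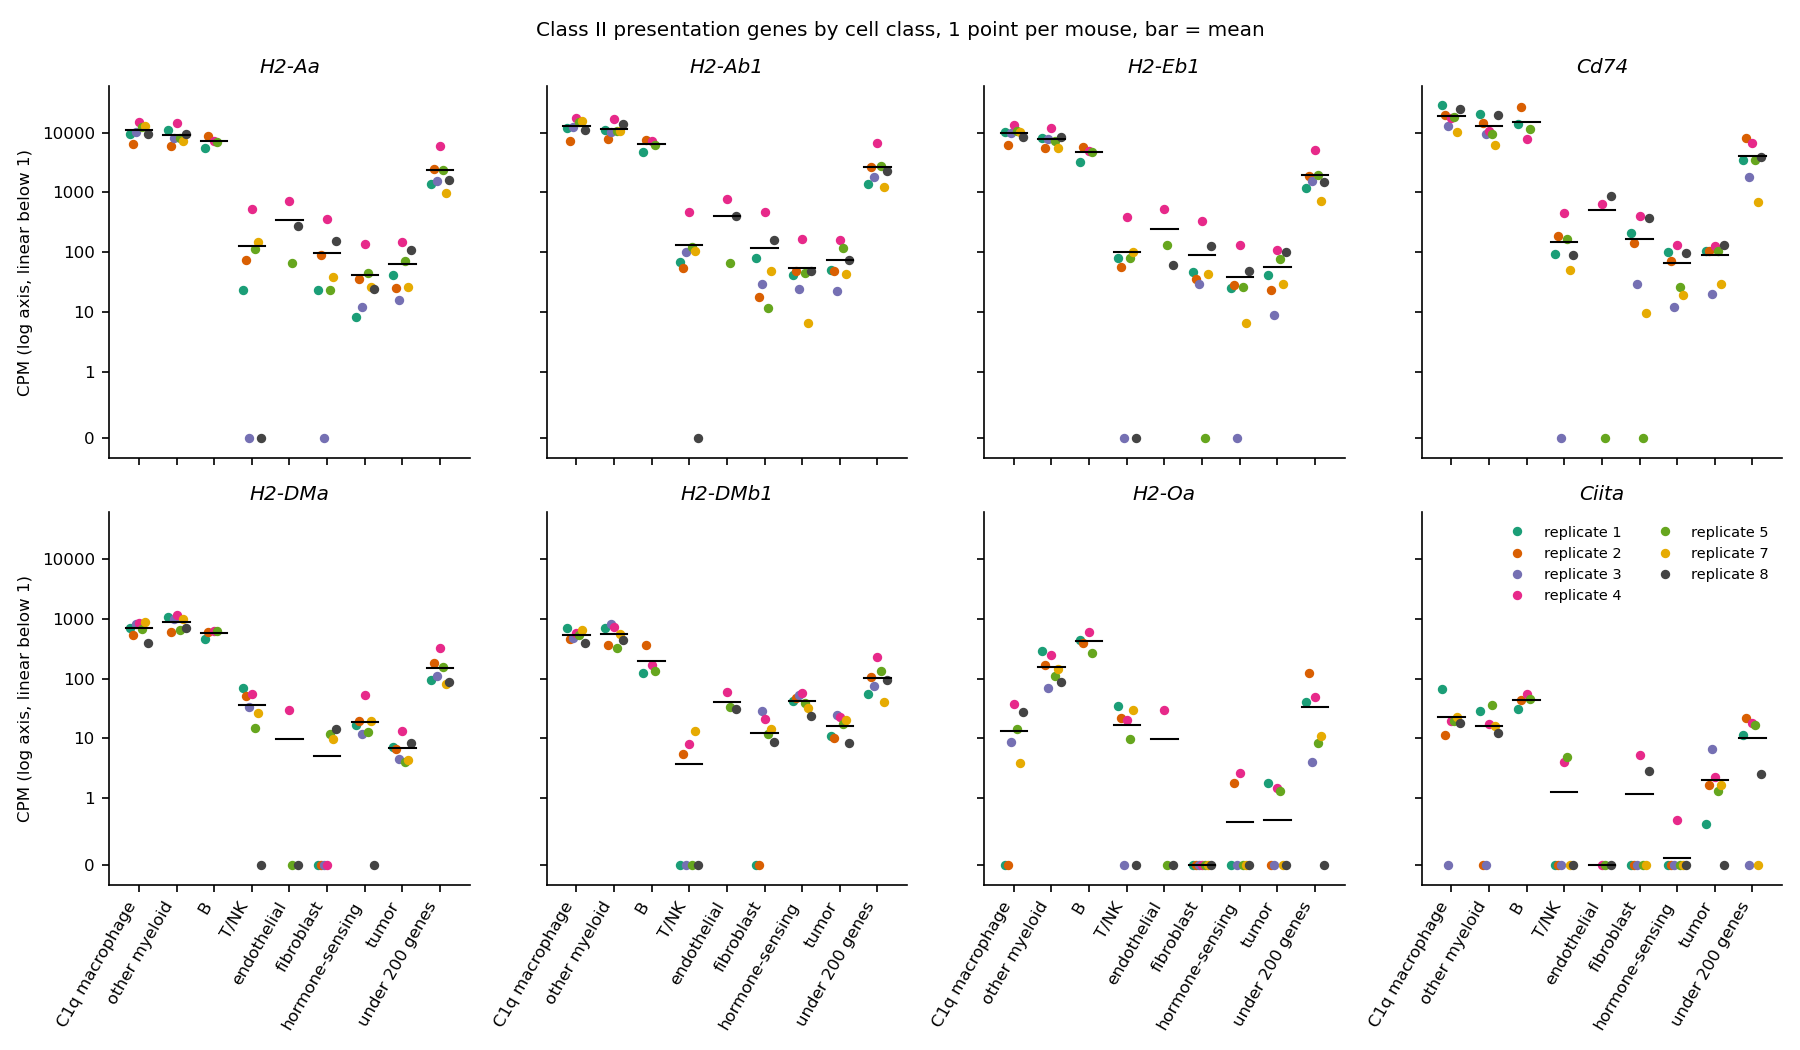
Level of each gene in CPM (y axis, logarithmic above 1 and linear below) by cell class (x axis), with 1 point per mouse and a bar at the mean. Cd74, H2-Aa, H2-Ab1 and H2-Eb1 lie between 3231 and 28713 CPM in macrophages, other myeloid cells and B cells, at most at 854 in the other classes and in between in most barcodes under 200 genes, whereas the mean of H2-Oa is 425 in B cells and 13.1 in macrophages.

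The accessory genes did not all follow the chains. H2-DMa averaged 689 ± 171 CPM in C1q macrophages, 880 ± 222 in other myeloid cells and 582 ± 79.3 in B cells, so the 3 classes overlapped. T/NK cells, at 35.8 ± 24.4 CPM, held more H2-DMa than tumor cells (6.95 ± 3.30) on average. H2-DMb1 averaged 537 ± 107, 562 ± 195 and 199 ± 115 CPM. Its 4 B cell values of 124 to 369 CPM all lay under the lowest macrophage value of 389.

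H2-Oa was highest in B cells, then in other myeloid cells, and lowest of the 3 in C1q macrophages. In B cells it was 435, 387, 606 and 271 CPM in replicates 1, 2, 4 and 5. Other myeloid cells ran from 70.6 to 285 CPM over the 7 mice, with a median of 144. C1q macrophages ran from 0 to 38.0 CPM with a median of 8.58, and none of them reached the lowest other myeloid sum.

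Ciita was sparse everywhere. It gave 29 UMIs in C1q macrophages, 10 in other myeloid cells and 9 in B cells, or averages of 22.8 ± 21.3, 15.8 ± 13.5 and 43.8 ± 9.87 CPM. Counts this low do not order the 3 classes, and Ciita did not pass the filter on low counts.

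C1q macrophages were compared with other myeloid cells of the same mice in 1 edgeR quasi-likelihood fit over all sums, blocked by mouse, with p-values adjusted by Benjamini-Hochberg over the 6715 genes tested. Of 7 members tested, Cd74 was called higher in macrophages, against 7.61% of all genes, and H2-Oa lower, against 3.51%. H2-Oa was 7.71-fold lower (log2 -2.95 ± 0.41 SE, adjusted p = 8.0e-08). Cd74 was 1.87-fold higher (log2 0.90 ± 0.29, adjusted p = 0.032), but this call was lost without replicate 1, 2, 3, 4 or 7, each alone (edgeR adjusted p 0.054 to 0.079). H2-Eb1 was at log2 0.68 ± 0.27 (adjusted p = 0.094), H2-Aa at 0.57 ± 0.27 (0.19) and H2-Ab1 at 0.51 ± 0.26 (0.24), none called. H2-DMa and H2-DMb1 were at log2 -0.04 ± 0.20 and 0.27 ± 0.21. The median of all genes was at log2 0.12 in this comparison, with 511 genes higher and 236 lower, and at -0.06 with upper quartile scaling, with 369 higher and 408 lower, under which Cd74 was at 0.68 and not called.

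B cells were compared with C1q macrophages in the same fit, with B cell sums in 4 mice. H2-Oa was 13.1-fold higher in B cells (log2 3.71 ± 0.44, adjusted p = 5.3e-10), the 1 member higher of 7 tested, against 7.31% of all genes. Lower were 5 of the 7, against 14.6%, namely H2-Eb1 (2.78-fold, adjusted p = 0.00084), H2-DMb1 (2.69-fold, adjusted p = 0.00031), H2-Ab1 (2.64-fold, adjusted p = 0.00090), Cd74 (2.004-fold, adjusted p = 0.041) and H2-Aa (1.99-fold, adjusted p = 0.027). Cd74 and H2-Aa lost the call without replicate 1, 4, 5 or 7, each alone, and Cd74 also without replicate 3. Cd74 was at log2 -1.61 and H2-DMb1 at -2.58 without replicate 2. H2-DMa was at log2 -0.67 ± 0.27 (adjusted p = 0.061). The median of all genes was at log2 -0.23, with 491 genes higher and 981 lower, and at 0 with DESeq2, with 680 higher and 790 lower, under which H2-Aa and Cd74 were not called.

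Other genes of the pathway were taken from a list of 26, of which 17 were tested. Between B cells and C1q macrophages 3 were higher and 8 lower. Those higher were H2-DMb2 (713 ± 341 against 16.9 ± 8.42 CPM), the H2-O beta chain H2-Ob (446 ± 51.7 against 9.91 ± 8.25 CPM) and H2-Eb2. H2-DMb2 is a close copy of H2-DMb1, and how the counting divided reads between the pair is not stated, so both levels are uncertain. The 8 lower were the endosomal proteases Ctss, which trims the invariant chain (780 ± 200 against 7479 ± 611 CPM), Lgmn and Ctsl, the thiol reductase Ifi30, the interferon gamma receptor chains Ifngr1 and Ifngr2, and the activation markers Cd83 and Cd86. Between C1q macrophages and other myeloid cells 6 were higher, Lgmn, Ctss, Ctsl, Cd86, Cd83 and March1, whose product removes class II from the surface. The 3 lower were H2-DMb2, H2-Ob and Cd80. H2-DMb2, H2-Ob and H2-Oa thus had the same order, B cells above other myeloid cells above C1q macrophages, in their mean CPM.

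Within the macrophages the larger cluster, led by Ms4a7 and the C1q genes, averaged 20720 ± 8123 CPM Cd74 (n = 7), and the smaller, led by Ccl8, Pf4 and Mrc1, 8250 ± 3996 (n = 6). H2-DMb1 averaged 590 ± 125 and 211 ± 93.6 CPM in the same clusters. Among other myeloid cells, 206 carried at least 1 UMI of a dendritic marker, and these averaged 14722 ± 5609 CPM H2-Ab1 (n = 6) against 10248 ± 2989 (n = 7) in the 534 without one. H2-Aa, H2-Eb1, Cd74, H2-Oa and Ciita were also higher on average in the cells with a marker UMI. H2-DMb1 was at 555 ± 275 against 556 ± 195 CPM and H2-DMa at 914 ± 498 against 873 ± 210. The 2 groups do not cover the same mice, and the part of that was not tested. These are descriptions of clusters, with no test.

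Over 49 sums of class and mouse, on log2(CPM + 10), the pairs among H2-Aa, H2-Ab1, H2-Eb1 and Cd74 had Pearson r of 0.95 to 0.98. The mean r with the classical genes was 0.92 for H2-DMa, 0.88 for H2-DMb1, 0.75 for Ciita and 0.69 for H2-Oa. Among 3489 genes with a mean of at least 50 CPM, the 5 with the most similar pattern outside the set included Cybb (mean r 0.95), Ly86 (0.94), Ncf1 (0.94) and Ctss (0.93). Cybb and Ncf1 encode parts of the phagocyte NADPH oxidase. Sums of 1 mouse share a library, so these values describe the pattern only.

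Whether tumor epithelium carried class II above the free RNA of its library was asked next. H2-Ab1 in tumor cells was 50.5, 48.4, 22.3, 160, 115, 42.7 and 75.3 CPM in replicates 1, 2, 3, 4, 5, 7 and 8. Barcodes under 200 genes held 1369, 2651, 1808, 6686, 2715, 1247 and 2239 CPM in the same mice. Every tumor value was under the reference of its own mouse, and replicate 4 was highest in both. A cell's own RNA lowers the share of free RNA among its UMIs. A value under the reference on this scale therefore cannot decide whether the cells express the gene. Cd74 averaged 89.3 ± 45.7 CPM in tumor cells and 4001 ± 2560 in the barcodes under 200 genes. H2-Aa averaged 62.6 ± 50.6 against 2338 ± 1685 CPM, and H2-Eb1 56.0 ± 39.98 against 1977 ± 1452. In edgeR's fit Cd74 was 47.4-fold lower (adjusted p = 9.6e-22), H2-Aa 46.0-fold, H2-Eb1 41.0-fold and H2-Ab1 40.1-fold lower in tumor cells.

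All 7 members tested were lower in tumor cells than in those barcodes, against 27.4% of all genes lower. The same held for 7 of 7 in hormone-sensing cells (31.9% of genes) and in fibroblasts (25.9%), 6 of 7 in T/NK cells (28.0%) and 5 of 7 in endothelial cells (8.55%). H2-Oa was the exception in T/NK cells (adjusted p = 0.12), and H2-Oa (0.33) and H2-DMb1 (0.053) in endothelial cells. Of the 17 pathway genes, 1 was higher and 13 lower in tumor cells. Ctsl, a lysosomal protease of many cell types, was the higher one (log2 0.72 ± 0.19, edgeR adjusted p = 0.0016), and Irf1 (adjusted p = 0.68), Ifngr2 (0.19) and Nfyb (0.35) were not called. The 13 lower included the class II genes H2-DMb2, H2-Ob and H2-Eb2, the surface and turnover genes Cd80, Cd83, Cd86 and March1, the endosomal enzymes Ctss, Lgmn and Ifi30, and Ifngr1 and Creb1, with log2 values from -5.90 (Cd86) to -0.60 (Creb1). In hormone-sensing cells Irf1, an interferon response factor, was the 1 pathway gene higher (log2 0.97 ± 0.26, edgeR adjusted p = 0.0011) and 15 were lower. In a sum, fewer positive cells and less RNA per cell cannot be told apart.

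The distance below the reference was not the same for all members, though differences between members were not tested. H2-DMb1 was 6.65-fold lower in tumor cells and 2.79-fold lower in hormone-sensing cells than in the barcodes under 200 genes. H2-DMa was 22.6-fold and 7.04-fold lower, while the 3 chains and Cd74 were 40.1 to 47.4-fold and 56.3 to 70.3-fold lower. With cells that held an immune reference UMI left out, Cd74 in tumor cells moved from log2 -5.57 to -6.39 and H2-DMb1 from -2.73 to -2.95. Tumor cells with 5 or more UMIs of Cd74 or the chains held 46.6% of those UMIs. Of these cells 80.6% carried a reference UMI, so leaving such cells out lowers Cd74 by construction. The size of these moves therefore cannot separate Cd74 from H2-DMb1.

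Free RNA from immune cells carries class II and other immune transcripts together, so the counts were also scaled to 13 immune reference genes (Ptprc, Cd52, Cd53, Coro1a, Laptm5, Tyrobp, Fcer1g, Rac2, C1qa, C1qb, C1qc, Cd79a and Cd79b). These summed to 130 ± 69.2 CPM in tumor cells, 97.1 ± 84.0 in hormone-sensing cells, 187 ± 200 in fibroblasts and 4597 ± 2274 in the barcodes under 200 genes, against 24197 ± 2111 in C1q macrophages. The ratio was not the same in all immune classes. Mean Cd74 was 147 CPM beside 7339 of the reference genes in T/NK cells, and 14938 beside 6649 in B cells. The ratio of a mouse thus depends on which immune cells gave the RNA, which was not tested. On this scale 98.2% of the 5895 genes tested were higher in tumor cells, so a value above 0 was the rule.

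Cd74 and the 3 chains were not called higher, and neither were Ctss, Cd83 and Cd86 among 14 pathway genes tested. Per immune reference UMI, Cd74 in tumor cells was 0.853 times the reference level (95% interval 0.597 to 1.22, edgeR adjusted p = 0.39). H2-Aa was 0.871 times (0.605 to 1.25, adjusted p = 0.46), H2-Eb1 0.973 times (0.673 to 1.41, adjusted p = 0.89) and H2-Ab1 1.002 times (0.702 to 1.43, adjusted p = 0.99). In UMIs, tumor cells held 561 of Cd74 where the ratio of their own mouse gave 699, and 510 of H2-Ab1 where it gave 512. The upper ends of the 4 intervals lay between 1.22 and 1.43 times the immune ratio.

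Hormone-sensing cells gave 0.726 times for Cd74 (0.451 to 1.17, adjusted p = 0.19) and 0.926 times for H2-Ab1 (0.572 to 1.499, adjusted p = 0.76). Of the genes tested there, 98.2% were higher. Fibroblasts, with 6 mice that had reference UMIs, gave 0.758 times for Cd74 (0.287 to 1.999, adjusted p = 0.58), beside 96.8% of genes higher. Endothelial cells, with 2 such mice, gave 1.08 times (0.609 to 1.91, adjusted p = 0.81), beside 83.0% of genes higher. The endothelial sum left out, replicate 5, held 2 H2-Aa, 2 H2-Ab1, 4 H2-Eb1 and 0 Cd74 UMIs beside 0 reference UMIs. The interval for H2-Ab1 reached 2.16 times in fibroblasts and 1.89 times in endothelial cells, so a level that far above the ratio could not be told from it there.

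H2-DMb1 and H2-DMa were the 2 members of 6 tested called higher, in both epithelial classes. H2-DMb1 in tumor cells gave 18, 6, 11, 30, 13, 37 and 1 UMIs in replicates 1, 2, 3, 4, 5, 7 and 8, where the immune ratio gave 2.80, 1.60, 0.397, 8.11, 3.64, 2.21 and 0.431. It was above the ratio in 7 of 7 mice, 6.52-fold in the fit (log2 2.70 ± 0.33 SE, edgeR adjusted p = 3.5e-16). In hormone-sensing cells it gave 140 UMIs against 12.1, above the ratio in 7 of 7 mice and 21.7-fold in the fit (log2 4.44 ± 0.40, edgeR adjusted p = 5.8e-28). The reference UMIs there were 7, 54, 6, 424, 11, 10 and 3 in replicates 1, 2, 3, 4, 5, 7 and 8. The fit takes these few UMIs as exact, so its p-value leaves out their counting error. The ratio gave 0.146 H2-DMb1 UMIs in replicate 1 and 0.0809 in replicate 8, so a single UMI was already above it there. The interval in tumor cells, 4.16 to 10.2 times the ratio, did not overlap those of Cd74 and the chains. With 98.2% of genes called, H2-DMb1 shared this with nearly every gene tested.

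H2-DMb1 averaged 42.3 ± 12.05 CPM in hormone-sensing cells (24.0 to 58.1), 16.3 ± 6.49 in tumor cells (8.37 to 24.6) and 3.799 ± 5.27 in T/NK cells (0 to 13.2). It was higher in hormone-sensing than in tumor cells of every mouse, and the ranges of the 2 classes overlapped only at their ends. Both lay under the 537 ± 107 CPM of C1q macrophages. H2-DMb2, the near copy, averaged 0.796 ± 1.08 CPM in tumor cells and 0.382 ± 1.01 in hormone-sensing cells.

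H2-DMa in hormone-sensing cells averaged 18.9 ± 16.1 CPM and gave 98 UMIs where the immune ratio gave 17.7, above it in 6 of 7 mice. Here too the ratio rested on 3 to 11 reference UMIs in replicates 1, 3, 5, 7 and 8. H2-DMa was 6.17-fold in the fit (log2 2.62 ± 0.46, edgeR adjusted p = 9.6e-09), and replicate 4 held 78 of the 98 UMIs. Without replicate 4 the log2 value was 2.74. In tumor cells it averaged 6.95 ± 3.30 CPM and was 1.68-fold above (log2 0.75 ± 0.38, edgeR adjusted p = 0.048), a call lost without replicate 1, 2, 4, 7 or 8, each alone (edgeR adjusted p 0.061 to 0.18). H2-DMa shares exon sequence with Brd2 on the other strand, and whether the counting used strand is not stated. Brd2 was at 332 ± 39.0 CPM in tumor cells and 190 ± 40.8 in hormone-sensing cells, and its part in the H2-DMa counts was not tested.

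H2-Oa gave 6 UMIs in 6722130 UMIs of tumor cells and 0 in 1008937 of fibroblasts, where 3 counts would be 2.97 CPM. Ciita gave 12 UMIs in tumor cells, in 6 of 7 mice, where the immune ratio gave 2.05, and 1 in hormone-sensing cells, where it gave 1.16. Ciita shares exon sequence with Dexi on the other strand, which was at 33.3 ± 12.2 CPM in tumor cells. Neither gene passed the filter on low counts in the fit per immune reference UMI, so no test of either is given on that scale. H2-Oa also overlaps BC051537 on the other strand, which gave 1 UMI in tumor cells.

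**Figure D2:**
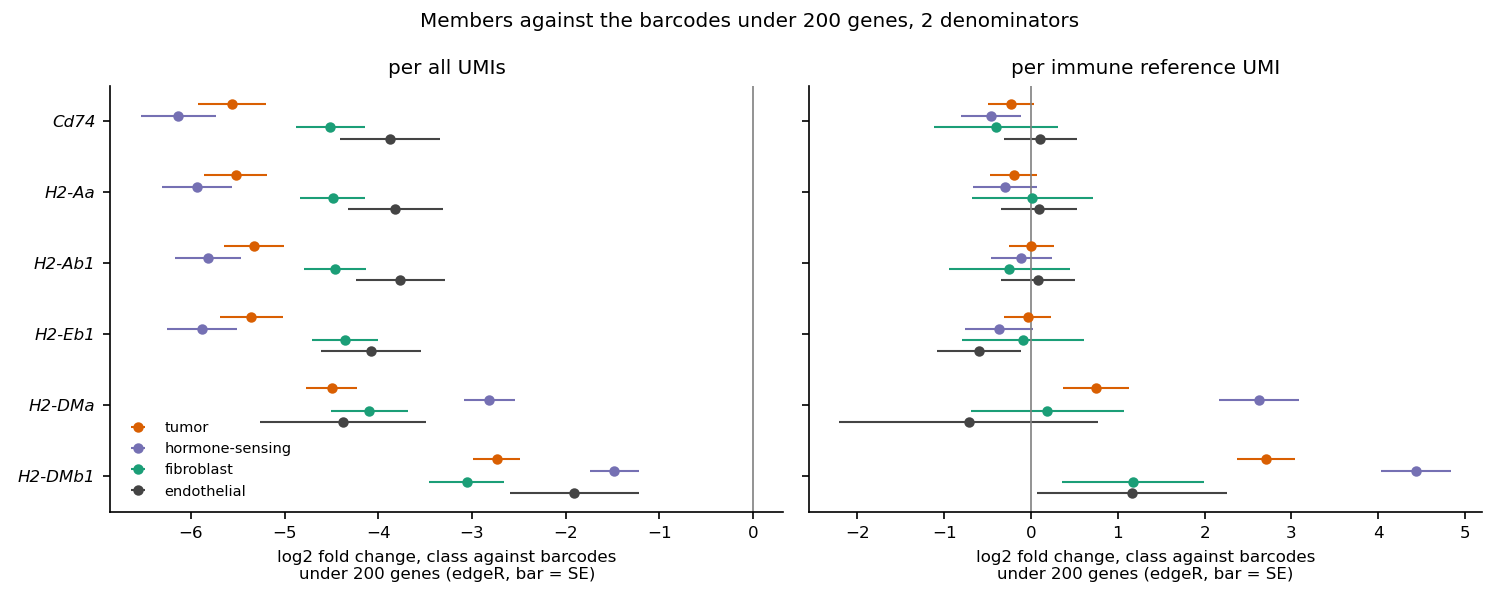
Fold change on the log2 scale (x axis) of 6 genes (y axis) in 4 cell classes against the barcodes under 200 genes, per all UMIs (left) and per immune reference UMI (right), with bars for the standard error derived from edgeR's test. Cd74 and the 3 chains lie far left of 0 on the left and around 0 on the right, and H2-DMb1 lies right of 0 for tumor and hormone-sensing cells on the right.

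In single cells the class II UMIs of the epithelium were concentrated in few cells. Of 5176 tumor cells, 4340 held no UMI of Cd74, H2-Aa, H2-Ab1 or H2-Eb1, 623 held 1, and 62 held 5 or more. Those 62 cells, 1.20% of the class, held 46.6% of its class II UMIs. An immune reference UMI was found in 80.6% of them (95% exact binomial interval 68.6 to 89.6%) and in 7.97% of the tumor cells without a class II UMI (7.18 to 8.82%). Their median depth was 732.5 against 628 UMIs, and they came from all 7 mice.

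Hormone-sensing cells had 45 cells of 5 or more that held 54.9% of the class II UMIs and carried a reference UMI in 91.1% (78.8 to 97.5%), against 10.96% of cells without one, though they came from 3 mice. Median depth was 1532 UMIs in those 45 cells against 771 in the cells without a class II UMI. The part of depth in this difference was not tested. In fibroblasts 24 such cells held 68.1%. Intervals cover counting error only. Among cells with an H2-DMb1 UMI, 28 of 109 in the tumor class (25.7%) carried a reference UMI, beside 10.1% of those without. Their median depth was 2357 against 653 UMIs, and the part of depth in that difference was not tested.

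**Figure D3:**
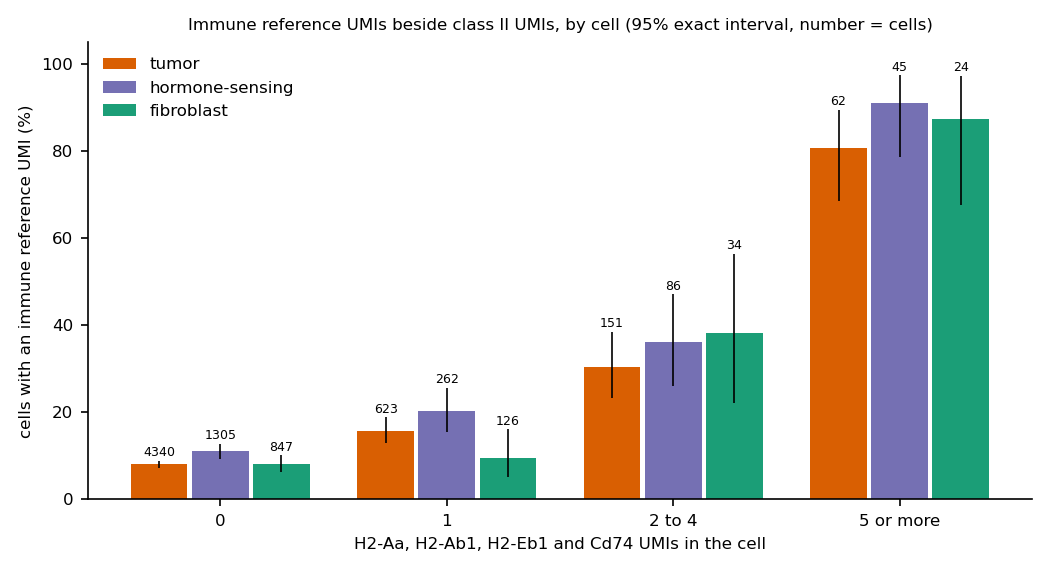
Share of cells with at least 1 immune reference UMI (y axis, percent) by the number of Cd74, H2-Aa, H2-Ab1 and H2-Eb1 UMIs in the cell (x axis), for 3 classes, with exact 95% binomial intervals and the number of cells above each bar. The share is 7.97% at 0 and 80.6% at 5 or more in tumor cells, 10.96 and 91.1% in hormone-sensing cells, and 8.03 and 87.5% in fibroblasts.

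After thinning each cell to 300 UMIs, a Cd74 UMI remained in 2.88% of 4612 tumor cells (95% exact binomial interval 2.42 to 3.41%). The share was 3.75% in hormone-sensing cells and 4.48% in T/NK cells (3.57 to 5.55%). Unthinned shares were 6.26, 8.78 and 5.83%, at median depths of 659, 869.5 and 419 UMIs. Thinning left out 564, 150 and 427 cells. At this equal depth the tumor share lay below the T/NK share, and unthinned it lay above. Thinning makes all UMIs equal but not the free RNA in a droplet, so neither order decides whether tumor cells express Cd74. The shares pool cells over mice, and their difference was not tested. For H2-DMb1 the thinned shares were 0.629% in tumor cells (0.422 to 0.902%), 1.49% in hormone-sensing cells (0.944 to 2.22%) and 0.280% in T/NK cells (0.0911 to 0.653%), and unthinned 2.11, 7.48 and 0.362%. In C1q macrophages the thinned share was 84.1%, in other myeloid cells 82.0% and in B cells 94.0%.

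Among the 5 tumor clusters, means of Cd74 ran from 60.9 ± 29.0 CPM in the cluster led by Car6 and Lalba to 218 ± 253 in the one led by Lgals7 and Wfdc18, where 1 mouse was at 749. The immune reference genes were also highest in that cluster, at 181 ± 127 CPM against means of 100 to 125 in the other 4, and their part in the Cd74 values was not tested. The PyMT-rich erythroid-like cluster, which is in no class, averaged 678 ± 580 CPM Cd74 and 513 ± 436 CPM H2-Ab1 (n = 4). Its immune reference genes averaged 778 ± 660 CPM, and their part was not tested there either. A cluster of 575 tumor cells was led by interferon response genes (Ifit3, Rsad2, Isg15). In 6 mice with at least 10 such cells, it held 5943 ± 1786 CPM B2m against 3418 ± 1322 in the other tumor cells, and 2462 ± 797 against 1852 ± 591 CPM H2-K1, both class I components and both higher in 6 of 6 mice. H2-Ab1 was 60.6 ± 40.9 against 74.5 ± 56.0 CPM, higher in 2 of 6 mice, and Cd74 104 ± 102 against 78.5 ± 44.2, higher in 4 of 6. H2-DMb1 was 24.5 ± 16.1 against 16.9 ± 6.35 CPM, higher in 5 of 6 mice, and H2-DMa 14.2 ± 15.7 against 5.52 ± 3.11, higher in 4 of 6, on 13 and 11 UMIs in the interferon-led cluster. The immune reference genes held 119 ± 109 against 128 ± 77.0 CPM, higher in 4 of 6 mice, with replicate 5 at 0 against 195. Ciita gave 1 UMI in the interferon-led cluster. Since the cluster was found in these same cells, no test was made.

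Between mice the ratio of Cd74 to the chains varied more than the ratios among the chains. Per H2-Ab1 UMI, C1q macrophages held 2.38, 2.73, 1.06, 1.001, 1.24, 0.646 and 2.25 Cd74 UMIs in replicates 1, 2, 3, 4, 5, 7 and 8. Other myeloid cells held 1.84, 1.86, 0.926, 0.637, 0.913, 0.594 and 1.41. B cells held 2.94, 3.49, 1.08 and 1.86 in replicates 1, 2, 4 and 5. Replicates 1, 2 and 8 were the 3 highest in both myeloid classes, replicate 7 the lowest, and the B cells had the same order in their 4 mice. H2-Aa per H2-Ab1 UMI ran from 0.785 to 0.894 in C1q macrophages, and H2-Eb1 from 0.662 to 0.857. Classes of 1 mouse share a library, so library and animal cannot be told apart. Title series, by the sample titles, did not separate the values, since replicates 1 to 4 (one series) and 5, 7 and 8 (the other) each held high and low ratios.

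**Figure D4:**
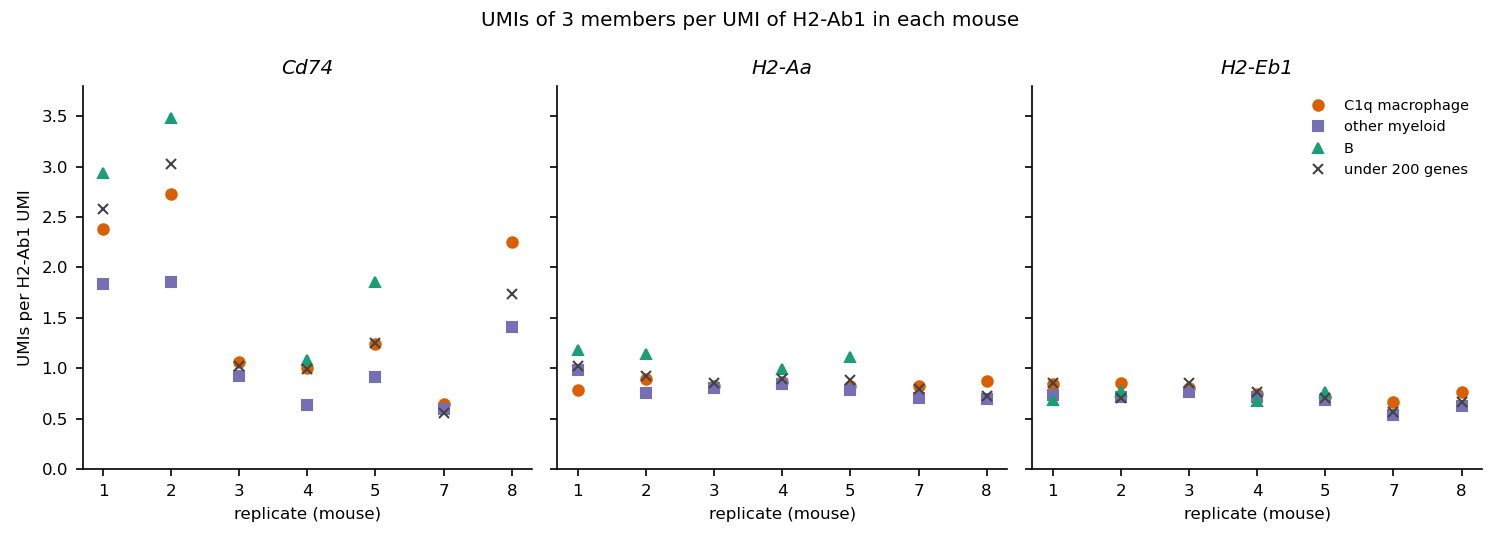
UMIs of Cd74, H2-Aa and H2-Eb1 per UMI of H2-Ab1 (y axis) in each mouse (x axis), with symbols for C1q macrophages, other myeloid cells, B cells and barcodes under 200 genes. Cd74 spans 0.646 to 2.73 in C1q macrophages. Within replicate 2 it runs from 1.86 in other myeloid cells to 3.49 in B cells. In C1q macrophages H2-Aa spans 0.785 to 0.894 and H2-Eb1 0.662 to 0.857.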

How the data were processed

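Per the paper's methods, the authors made 1 Drop-seq library per tumor and used mm10 plus the PyMT sequence as the alignment reference. The deposited matrices analysed here, from 7 control tumors, hold raw UMI counts (genes by barcodes, not normalized). The methods give another number of control tumors, while a figure legend of the paper gives 7. Per the labels' processing notes, STAR and FastQC were used, and human builds (GRCh37.p13, hg19) are listed. Annotation and strand use are not given in the sources used here.

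Barcodes with 200 to 6000 genes (mitochondrial genes left out) were kept, with 962677 to 4471473 UMIs per library. Doublets were removed by that upper limit only. Seurat 5.3.0 in R 4.3.3 gave 18 clusters (20 components, resolution 1) from 578 variable genes, without the class II and pathway genes, and clusters were named from marker lists. UMI sums per mouse and class were tested with edgeR 4.0.16 (quasi-likelihood, TMM, filterByExpr, adjusted p under 0.05), with the mouse as a block because the classes compared come from the same tumors. In a second fit the library size was the UMIs of the 13 immune reference genes. The SE of an edgeR value was derived, as the size of the log2 fold change divided by the square root of the test's F statistic. Intervals of folds are 95% normal intervals from that SE, so an interval and its p-value can differ slightly. All intervals of shares are exact binomial and cover counting error only. DESeq2 1.42.0 was 1 of the alternatives given in the closing section. Member counts there stand without the share of all genes called, so they do not compare members with other genes. The fits were tested on simulated data.

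The 8 genes and all lists were chosen with earlier results of these data known. The text names the 8 genes in every class, pathway genes that were called or not called beside their counts, and the 5 genes most like the classical ones. Replicates are separate mice. Some genes that these rules and lists name are not reported here.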

Additional observations from a re-analysis of the deposited data

Results flagged for a closer look

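Dixon's criterion flags a sample whose gap to its nearest neighbour is large against the whole range. Of 52 groups of 4 to 7 mice with at least 20 UMIs of a member, 18 had such a sample. Chance gives this in about 1 of 20 independent groups of normally distributed values. These groups share mice and correlated genes, so that rate does not apply to their count. Replicate 4 was the flagged sample in 15 of the 18. In the barcodes under 200 genes it held 5965 CPM H2-Aa, 6686 H2-Ab1, 5132 H2-Eb1 and 322 H2-DMa, where the next mouse had 2448, 2715, 1926 and 184. In T/NK cells it held 530 CPM H2-Aa, 462 H2-Ab1, 387 H2-Eb1 and 447 Cd74. In hormone-sensing cells it held 138 CPM H2-Aa, 164 H2-Ab1, 130 H2-Eb1 and 52.1 H2-DMa. In fibroblasts it held 358 CPM H2-Aa, 464 H2-Ab1 and 336 H2-Eb1. The immune reference genes were highest in replicate 4 as well, at 9450 CPM of the barcodes under 200 genes and 283 CPM of hormone-sensing cells, and their part in these levels was not tested. Replicate 2 held 369 CPM H2-DMb1 in B cells, where the next mouse had 165, and 126 CPM H2-Oa in barcodes under 200 genes, where the next had 48.3. Replicate 1 held 67.9 CPM Ciita in C1q macrophages, where the next had 23.2.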

How the results depend on the processing

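Of 1359 recomputed values of single genes, 1291 stayed on the same side of the threshold, 51 lost the call, 17 gained it and 0 changed direction while called. Among the 1291 were 45 that changed sign but were called under neither setting. The counts of members below the barcodes under 200 genes stayed within 1.5 times in all 5 classes under every alternative that gave a value. H2-DMb1 per immune reference UMI stayed called in tumor (log2 2.42 to 3.07) and hormone-sensing cells (4.14 to 4.90) wherever it was tested. With barcodes under 150 genes as reference it did not pass the filter, and the members called were 0 in tumor and 1 in hormone-sensing cells. The tumor count was 1 in place of 2 at resolution 0.6 (with 20 or with 9 components), with DESeq2, no replicate block, the WT series alone, a reference without C1q and Cd79 chains or the ratio taken from immune cells, and 1 to 2 without single replicates, since H2-DMa lost its call. The hormone-sensing count was 1 in the WT series alone, where H2-DMb1 was not tested.

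Of macrophages against other myeloid cells, members higher were 0 with upper quartile scaling, DESeq2, no block or either series alone. They were 4 with no filter and 0 to 1 without single replicates. Of B cells against C1q macrophages, members lower were 3 with upper quartile scaling, DESeq2 or the CB series alone, 1 with no replicate block, 0 in the WT series alone, and 3 to 6 without single replicates, and members higher were 0 in the WT series alone, where 1 mouse has B cells. The mouse block pairs sums by design. No share of all genes is given here.

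Counts over all genes moved by over 1.5 times as follows. In the WT series alone, genes lower than the barcodes under 200 genes were 1211 in tumor, 1121 in hormone-sensing, 947 in fibroblast, 209 in endothelial and 1027 in T/NK sums, macrophages against other myeloid gave 179 higher and 94 lower, and B cells against macrophages 58 higher and 137 lower. Endothelial genes lower were 990 with 9 components at resolution 0.6, where the cluster so named held 415 cells, not 143, and was led by contractile genes (Mylk, Acta2) with no endothelial marker in its top 10, 195 with DESeq2, 125 in the CB series alone, and 231 to 614 without single replicates. Macrophages against other myeloid gave 408 lower with upper quartile scaling and 152 in the CB series alone. B cells against macrophages gave 304 higher with no filter and 188 to 518 without single replicates. With no filter, 3406 genes were lower in hormone-sensing cells, and per immune reference UMI 17602 were higher in tumor, 16015 in hormone-sensing and 12388 in fibroblast sums. With barcodes under 150 genes, 2746 were higher in hormone-sensing and 1518 in endothelial sums on that scale. Genes higher than the barcodes under 200 genes, per all UMIs, also moved. In tumor sums 1124 became 687 in the CB series and 244 in the WT series, and fell by over 1.5 times with no replicate block. In endothelial sums 334 became 713 with 9 components at resolution 0.6, 171 in the CB series, 154 in the WT series and 220 without replicate 4. In hormone-sensing sums 1156 became 312 in the WT series. In T/NK sums 1262 became 347 in the WT series, 674 with at least 500 genes per cell, 739 with 9 components at resolution 0.6, 794 without replicate 2 and 823 without replicate 4, and fell over 1.5-fold with DESeq2 or no block. Per immune reference UMI, genes lower were 1 to 37 in all classes and settings fitted. The cause was not tested, but each series holds fewer mice and no filter tests more genes.

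Cells of at least 500 genes gave no other myeloid or B class and 9 components at resolution 0.6 no other myeloid class. Per immune reference UMI endothelial sums could not be fitted in 1 series or without replicate 4 or 8. Depth was least in endothelial sums (3 counts are 31.1 CPM).

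Scaling moved the balance of calls. Against the barcodes under 200 genes, endothelial sums had 334 genes higher and 574 lower with TMM (median of all genes log2 -0.51) and 453 and 195 with DESeq2 (-0.15). T/NK sums had 1880 genes lower with TMM (-0.09) and 2197 with DESeq2 (-0.32), with fewer higher. Fibroblast sums had 1288 and 1736 with TMM (-0.15) and 1083 and 2327 with upper quartile (-0.35).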
